A study of Mus musculus with 11 samples.

Results

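Pancreas of mice injected with the β-cell toxin streptozotocin (STZ) as newborns was set against pancreas of sham-injected mice, both from dams that ate the control diet. All members are arrays whose labels give the control diet and either injection: 5 of the 11 arrays of the study, 2 of them STZ and 3 sham. The STZ arrays are replicates 1 and 3, the sham arrays replicates 1, 2 and 3, and a control diet STZ replicate 2 was not analysed here. The study also covers 6 arrays from offspring of protein-restricted dams (3 STZ, 3 sham), used here to estimate the spread between arrays and for 1 comparison at the end.

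Control dams ate 20% protein through gestation and stayed on that diet from birth onward. Female Balb/C pups in the STZ group received 35 mg STZ per kg body weight in sodium citrate buffer each day on days 1 to 5 of life, and sham pups received the vehicle on the same days. Restricted dams ate an isocaloric diet with 8% protein in gestation and the control diet after birth. Each array holds biotin-labelled RNA from whole pancreas of offspring aged 30 days. Pancreas holds mainly acinar cells, with islets as a minor share, so in these samples fewer cells of a type and less RNA per cell cannot be told apart. The labels call the arrays biological replicates and give neither dam nor litter, so the p-values measure the spread between these arrays.

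STZ is a glucose analogue carrying a nitrosourea group. It enters β cells through the glucose transporter GLUT2 (Slc2a2), alkylates their DNA and kills them, and after neonatal exposure rodent islets partly regenerate. Islets hold β cells (insulin and amylin), α cells (glucagon), δ cells (somatostatin) and PP cells (pancreatic polypeptide). All of them store their hormones in dense-core granules built with granins, in which enzymes cut the prohormones.

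Signals are on the log2 scale as the authors deposited them, where a difference of 1 is a doubling. Medians of the 5 arrays lay between 7.94 and 7.97. Correlation over probe sets was 0.992 between the STZ arrays, 0.986 to 0.991 among sham arrays and 0.988 to 0.992 across the injections. On principal components of the 5 arrays, the first (37.9% of the variance) had sham 1 and sham 2 at its ends, and the second (25.3%) placed STZ 1 at 30.3 and STZ 3 at 0.1, against -13.6, -9.1 and -7.7 for the sham arrays. The 3' minus 5' probe difference of Actb, which is larger where RNA is more degraded, was 1.20 on STZ 1 and 2.05 on STZ 3, against 1.59, 2.04 and 2.09 on sham arrays. Acinar enzymes were near the top of the scale on all 5 arrays, as fits the labelled tissue, and the β-cell markers Ins2, Iapp, G6pc2 and Pdx1 were measured, whereas Slc2a2 lay under the limit set for dim genes (6.87). Ins1, the other mouse insulin gene, has no probe set of its own.

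One limma model of the 4 diet and injection groups was fitted to 15897 genes, with 1 probe set each. With Benjamini-Hochberg adjustment, 0 genes (0%) passed an adjusted p of 0.05 for STZ against sham. At an unadjusted p under 0.05 there were 644 genes (4.05%), 305 higher (1.92%) and 339 lower (2.13%) after STZ. For 2601 genes (16.4%) both STZ arrays lay outside the range of the 3 sham arrays, 1374 above (8.64%) and 1227 below (7.72%). The median difference over all genes was 0.00, and 90% of genes lay between -0.23 and 0.20. Only 11 genes (0.0692%) differed at least 2-fold. Of these, 5 (0.0315% of genes) were lower, namely G6pc2, Iapp, Ins2, Dbp and Scg2, and 6 (0.0377%) were higher, namely Gadd45g, Sgk1, Sdf2l1, Snd1, Pdk4 and Creld2. Of the 5 lower genes, 4 belong to islets (Iapp and Ins2 are β-cell hormones, G6pc2 a β-cell enzyme, Scg2 a granin of endocrine granules), and Dbp is a clock-controlled transcription factor. Since none passed the adjusted test, every difference below is given with its standard error as a measured value that did not pass over all genes. The smallest adjusted p was 0.315 (G6pc2) and all others named below had 0.999, with limma.

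Insulin and amylin transcripts were 3- to 4-fold lower after STZ, while those of glucagon, somatostatin, peptide YY and pancreatic polypeptide were lower by smaller amounts that rested in part on 1 sham array. The Ins2 signal was 13.10 and 13.41 on STZ arrays, against 14.81, 15.24 and 14.86 on sham arrays, a difference of -1.72 ± 0.31 (SE), or 3.29-fold lower. Iapp, the amyloid peptide released together with insulin, measured 12.72 and 12.40 on STZ arrays and 14.32, 14.85 and 14.27 on sham arrays (-1.92 ± 0.38, 3.79-fold lower). For both genes the groups lay far apart, with every STZ array more than 1 log2 unit under the lowest sham array. All 4 bright Iapp probe sets pointed the same way, with differences between -2.41 and -1.72. The Ins2 probe set is of a type that can cross-hybridise, so Ins1 transcripts may add to it.

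Gcg, the glucagon precursor of α cells, gave 13.36 and 13.12 on STZ arrays, against 13.90, 14.41 and 13.87 on sham arrays (-0.82 ± 0.46). Sst, the δ-cell hormone somatostatin, gave 9.87 and 9.74 after STZ, against 10.16, 10.75 and 10.10 in sham (-0.53 ± 0.26). Peptide YY, made by several islet cell types (Pyy), was at 10.02 and 9.74 on STZ arrays and 10.20, 11.03 and 10.18 on sham arrays (-0.59 ± 0.34). In all 3 cases the STZ arrays lay under all sham arrays, and sham 2 was the highest of the 5. Without sham 2 the Sst difference was -0.33 and that of Pyy -0.31. Ppy, pancreatic polypeptide, measured 8.67 and 8.73 on STZ arrays and 8.78, 9.51 and 8.84 on sham arrays, and its difference of -0.34 ± 0.25 was -0.11 without sham 2. Ghrl, the hormone ghrelin of ε cells, went the other way by little, with 7.75 and 7.59 on STZ arrays against 7.53, 7.59 and 7.55 on sham arrays (0.11 ± 0.09). Of the 7 hormones measured, 6 lay wholly below sham (7.72% of all genes did so) and 1 wholly above, with a median difference of -0.59, which was -0.33 without sham 2. At an unadjusted p under 0.05 there were 2, Ins2 and Iapp, both lower (2.13% of all genes were). That count was 5 without low protein sham 1, 4 without low protein sham 3 and 4 with the 2 groups alone.

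**Figure D1:**
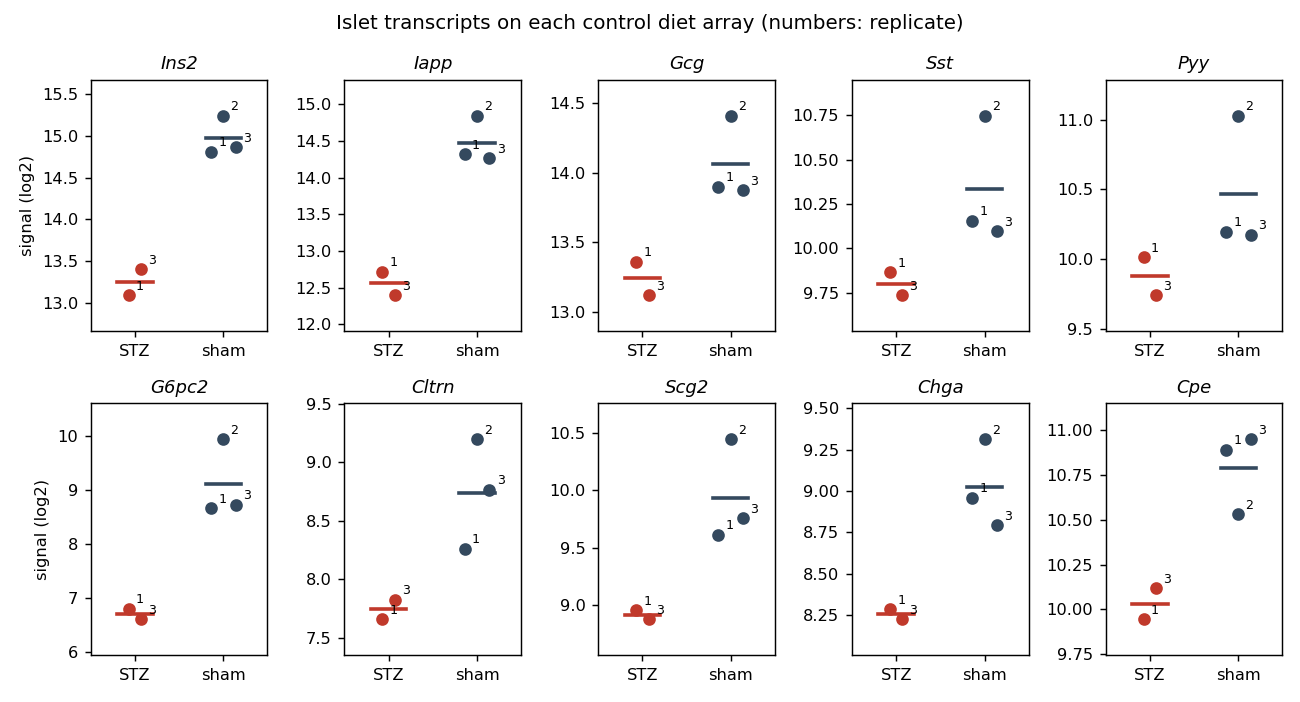
Signal (log2, each panel on its own vertical scale) of 10 islet transcripts on the 2 STZ and 3 sham arrays of control diet offspring. Each point is 1 array labelled with its replicate number and each bar a group mean; in every panel both STZ arrays lie below all sham arrays, and sham 2 is the highest array for 9 of the 10 genes, Cpe being the exception.

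G6pc2 showed the greatest difference of all 15897 genes. It encodes the islet glucose-6-phosphatase subunit that returns glucose-6-phosphate to glucose and so sets how much glucose triggers insulin release. Its signal was 6.81 and 6.62 on STZ arrays, both under the dim limit, against 8.66, 9.93 and 8.72 on sham arrays. The difference was -2.39 ± 0.33, or 5.25-fold lower with limma's adjusted p = 0.315, a size that signals under the limit can understate. Without sham 2 it was -1.98 ± 0.19 with limma's adjusted p = 0.0210, the only gene that passed in that fit.

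The rest of the glucose sensing list did not share that difference. Its 10 tested genes of 15 had a median of 0.00, with 5 higher and 5 lower. Both subunits of the ATP-sensitive potassium channel that couples metabolism to membrane voltage were alike in the groups: Abcc8 (SUR1) measured 9.01 and 8.99 on STZ arrays and 8.98, 9.11 and 9.01 on sham arrays, a difference of -0.03 ± 0.07. Kcnj11 (Kir6.2) differed by -0.02 ± 0.08. The incretin receptors Glp1r (0.12 ± 0.23) and Gipr (0.09 ± 0.08) and the calcium channel Cacna1d (0.18 ± 0.10) had small positive differences. Trpm5, a cation channel of taste and β cells, was lower by its brightest probe set (8.71 and 8.62 after STZ, against 8.86, 9.13 and 8.86 in sham; -0.29 ± 0.11), but its other probe sets gave 0.13 and -0.06. Slc2a2 and the zinc transporter Slc30a8 lay at or under the dim limit, and were not tested.

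Among 9 tested of 12 other β-cell genes all 9 were lower after STZ (49.3% of all genes were), with a median of -0.16. Cltrn (collectrin), a membrane protein of β cells and kidney tubules, had the greatest difference, with 7.66 and 7.82 on STZ arrays against 8.26, 9.19 and 8.76 on sham arrays (-0.998 ± 0.277). Ucn3, a peptide of mature mouse β cells, was at 6.98 and 6.89 after STZ and 7.10, 7.28 and 7.12 in sham (-0.23 ± 0.11). The remaining 7 genes differed by -0.22 to -0.03.

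Islet transcription factors had small differences. Of 20 listed, 14 were tested, 11 lower and 3 higher (49.3% of all genes were lower), with a median of -0.08, and 6 lay wholly below sham (7.72% of all genes). Pdx1, the homeodomain factor that drives insulin and amylin transcription, measured 8.72 and 8.56 on STZ arrays, against 8.83, 8.995 and 9.01 on sham arrays (-0.31 ± 0.10, 1.24-fold lower), and was the only one with an unadjusted p under 0.05 (2.13% of all genes). That count was 0 without STZ 3 and 3 without sham 1. The Pdx1 groups did not overlap, with a gap of 0.11 between them. Foxa2, a pioneer factor of endoderm, was at 9.76 and 10.00 after STZ and 10.41, 10.12 and 10.12 in sham (-0.34 ± 0.16). Neurod1, Isl1 and Insm1, which act in endocrine differentiation, differed by -0.22 ± 0.12, -0.18 ± 0.13 and -0.20 ± 0.14. The β-cell factor Nkx6-1 (0.06 ± 0.11) and the pan-endocrine factor Pax6 (0.15 ± 0.11) were not lower. Besides the hormones, the 8 tested α- and δ-cell markers had a median of 0.04.

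Granule proteins shared by all endocrine cells were mostly lower after STZ, with a median between those of the transcription factors and the hormones. Of 14 tested members of the granin and prohormone processing list (16 in all), 11 were lower (49.3% of all genes were) and 3 higher. The median was -0.37, and 7 lay wholly below sham (7.72% of all genes) and 1 wholly above (8.64%). An unadjusted p under 0.05 was reached by 6 lower genes and 1 higher gene (2.13% and 1.92% of all genes). Scg2 (secretogranin II) measured 8.96 and 8.88 on STZ arrays and 9.61, 10.44 and 9.76 on sham arrays (-1.02 ± 0.30). Chga (chromogranin A), which helps granules form, was at 8.28 and 8.22 on STZ arrays and 8.96, 9.31 and 8.79 on sham arrays (-0.77 ± 0.23). Scg5 (7B2), the chaperone of prohormone convertase 2, was at 7.69 and 7.38 on STZ arrays and 8.04, 8.88 and 8.24 on sham arrays (-0.85 ± 0.33). None of these 3 groups overlapped, and sham 2 was again the highest array.

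Chgb (chromogranin B) gave 7.90 and 7.88 on STZ arrays against 8.30, 8.49 and 8.18 on sham arrays (-0.43 ± 0.11). Scg3, which ties chromogranin A to the granule membrane, gave 8.57 and 8.76 after STZ against 9.09, 9.42 and 8.96 in sham (-0.49 ± 0.15). Carboxypeptidase E (Cpe), which trims basic residues from cut prohormones, gave 9.95 and 10.12 after STZ against 10.89, 10.53 and 10.95 in sham (-0.76 ± 0.28), although a second Cpe probe set gave 0.02. Prohormone convertase 1 (Pcsk1, -0.07 ± 0.13) and the amidating enzyme Pam (0.13 ± 0.11) did not share the lower signal. Ptprn (IA-2), a granule membrane protein, was higher, at 10.44 and 10.32 on STZ arrays and 10.20, 10.13 and 10.11 on sham arrays (0.24 ± 0.08). The list's median was -0.27 without sham 2, -0.30 without STZ 1 and -0.43 without STZ 3. At an unadjusted p under 0.05 there were 6 lower and 1 higher without sham 2 (4.27% and 1.87% of all genes in that fit). Those counts were 5 and 1 without sham 1 (3.05% and 2.54%) and also without sham 3 (1.77% and 2.23%).

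Genes for docking and fusing the granule had a median of -0.04 over the 14 tested, with 9 lower (49.3% of all genes were) and 5 higher. That median was 0.01 without sham 1, and -0.13 with 10 lower without STZ 3. Sytl4 (granuphilin), which docks insulin granules, was at 7.29 and 7.27 on STZ arrays and 7.49, 7.62 and 7.93 on sham arrays (-0.40 ± 0.12), but its other probe set gave -0.06. The fusion protein Vamp2 differed by -0.33 ± 0.13 with overlapping arrays (7.66 and 7.82 after STZ, 7.82, 8.27 and 8.12 in sham), and the Rab3 effector Rph3al by 0.18 ± 0.07.

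**Figure D2:**
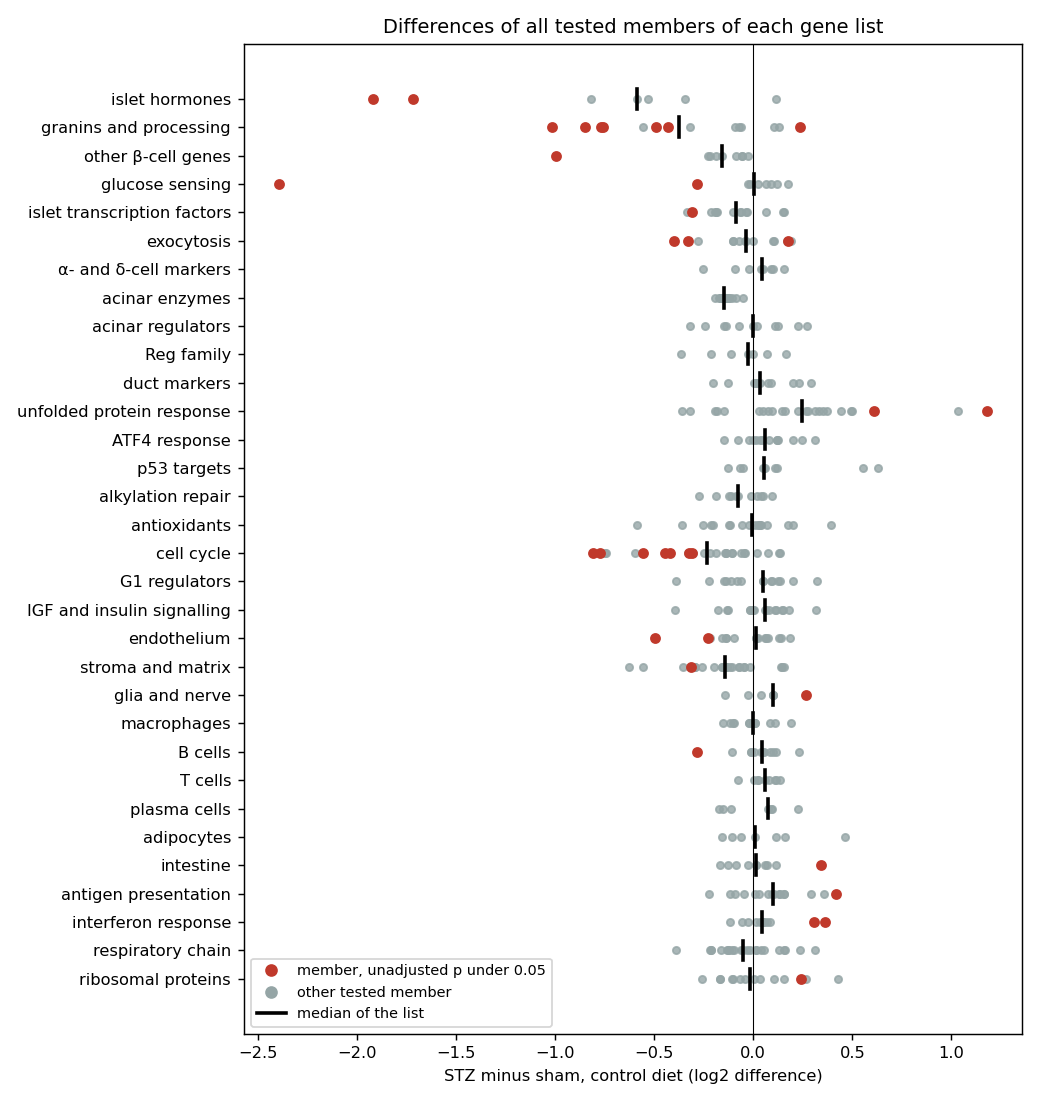
STZ minus sham (log2 difference, horizontal) of every tested member of 32 gene lists, 1 list per row, in control diet offspring. Red points have an unadjusted p under 0.05, grey points do not, and the black bar is the list's median; the hormones (median -0.59) and the granins and processing enzymes (-0.37) have the lowest medians and the unfolded protein response (0.24) the highest.

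Promoter windows are shown for 5 islet genes whose STZ arrays lay wholly below sham, 3 of which share a full cAMP response element. They were chosen after their values and sequences had been seen. They are RefSeq sequence of GRCm38.p6, the 250 bases before the transcription start, read along the gene's own strand. In the first pair, capitals mark TAAT on either strand, the core that homeodomain proteins such as Pdx1 bind. The Iapp window is chr6:142298175-142298424 on the plus strand, and the G6pc2 window chr2:69210823-69211072 on the plus strand, before the first of 2 starts in the table.
Iapp: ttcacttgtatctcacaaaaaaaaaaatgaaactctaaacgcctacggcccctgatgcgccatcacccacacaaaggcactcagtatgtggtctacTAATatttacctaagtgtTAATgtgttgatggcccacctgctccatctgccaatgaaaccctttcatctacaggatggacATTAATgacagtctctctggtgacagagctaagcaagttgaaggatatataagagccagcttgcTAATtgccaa
G6pc2: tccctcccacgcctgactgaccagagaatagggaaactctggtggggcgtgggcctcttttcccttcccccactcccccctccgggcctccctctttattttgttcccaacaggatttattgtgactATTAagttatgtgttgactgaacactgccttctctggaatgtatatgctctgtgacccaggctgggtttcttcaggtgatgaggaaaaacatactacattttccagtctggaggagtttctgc
Iapp held 5 matches, 2 of them overlapping in the 6 capitals ATTAAT, and G6pc2 held 1. TAAT was present in 54.9% of 32851 mouse promoter windows of this length, and 5 or more matches in 5.54%. In the second group capitals mark TGACGTCA, a palindrome and the full cAMP response element bound by CREB. The windows are chr1:79440027-79440276 on the minus strand (Scg2), chr2:132781392-132781641 on the plus strand (Chgb) and chr16:23890845-23891094 on the minus strand (Sst).
Scg2: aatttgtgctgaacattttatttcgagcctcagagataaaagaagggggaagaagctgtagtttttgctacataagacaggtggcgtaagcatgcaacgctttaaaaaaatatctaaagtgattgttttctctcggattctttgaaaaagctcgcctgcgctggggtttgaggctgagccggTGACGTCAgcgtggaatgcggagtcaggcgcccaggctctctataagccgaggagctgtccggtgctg
Chgb: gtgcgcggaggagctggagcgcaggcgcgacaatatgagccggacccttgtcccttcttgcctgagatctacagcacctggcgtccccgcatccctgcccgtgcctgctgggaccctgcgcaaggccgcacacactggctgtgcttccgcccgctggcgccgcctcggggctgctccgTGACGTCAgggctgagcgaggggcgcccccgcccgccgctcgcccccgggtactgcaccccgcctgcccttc
Sst: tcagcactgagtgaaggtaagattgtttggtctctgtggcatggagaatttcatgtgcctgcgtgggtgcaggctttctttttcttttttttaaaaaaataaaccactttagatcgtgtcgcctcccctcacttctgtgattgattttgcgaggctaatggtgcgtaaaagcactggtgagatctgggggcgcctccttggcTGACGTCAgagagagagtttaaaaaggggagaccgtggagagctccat
The element begins 68, 72 and 48 bases before the start in Scg2, Chgb and Sst, and 1.55% of all windows hold it. A match describes these letters and says nothing about binding in these samples.

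Acinar enzymes, the bulk product of the exocrine pancreas, were slightly lower after STZ in every tested member. All 21 tested members of 25 were lower (49.3% of all genes were), 18 of them with both STZ arrays under all sham arrays (7.72% of all genes). Yet the median was only -0.15 and 0 had an unadjusted p under 0.05. Cpa1 (carboxypeptidase A1) gave 15.60 and 15.70 on STZ arrays and 15.79, 15.81 and 15.73 on sham arrays (-0.13 ± 0.12). The mean of the list was 15.40 and 15.47 on STZ arrays against 15.61, 15.60 and 15.52 on sham arrays. These signals lie close to the highest value in the data (15.91), where an array compresses differences. After cyclic loess scaling between arrays the median was -0.02, with 4 members higher and 17 lower. Regulators of acinar identity had a median of -0.00 over 11 genes (0.13 without sham 1 and -0.18 without sham 2), among them Ptf1a (-0.24 ± 0.33) and Bhlha15 (MIST1, 0.27 ± 0.29). Duct markers had a median of 0.04 over 11 genes, with 9 higher (50.7% of all genes were), but 7 without sham 2 and 6 without sham 3. The Reg family, lectins secreted by acinar and regenerating tissue, had a median of -0.03 over 7 genes, with Reg2 at 10.99 and 10.90 after STZ against 11.67, 11.26 and 10.99 in sham (-0.36 ± 0.19).

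Chaperones of the endoplasmic reticulum were mostly higher after STZ, with STZ 1 the highest array. All 24 listed genes of the unfolded protein response were tested, 19 were higher (50.7% of all genes were) and 5 lower, the median was 0.24, and 2 higher genes had an unadjusted p under 0.05 (1.92% of all genes). That count was 0 without STZ 1, 1 without sham 3, and 4 without STZ 3 or without sham 1. Sdf2l1, a lumenal co-chaperone, measured 12.19 and 11.34 on STZ arrays, against 11.06, 10.97 and 9.72 on sham arrays (1.18 ± 0.40, 2.27-fold higher, and 0.75 without STZ 1 or without sham 3). Hyou1 (GRP170), a lumenal chaperone, gave 13.54 and 13.11 after STZ against 12.55, 13.04 and 12.56 in sham (0.61 ± 0.26, and 0.40 without STZ 1), and its 3 bright probe sets agreed in direction (0.55 to 0.86). Creld2 was 2.05-fold higher on average, but its arrays overlapped, at 12.93 and 11.38 after STZ and 10.50, 12.11 and 10.75 in sham (1.03 ± 0.64). Pdia4, a disulfide isomerase, gave 9.56 and 8.82 after STZ and 8.59, 8.75 and 8.74 in sham (0.49 ± 0.24, and 0.12 without STZ 1).

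Hspa5 (BiP), the chief chaperone of this response, differed by only 0.07 ± 0.36, and the factor Xbp1 by -0.32 ± 0.19. The mean of the 24 genes was 12.29 and 11.98 on STZ arrays against 12.03, 11.91 and 11.74 on sham arrays, so the groups overlapped. Without STZ 1 the median was 0.10, and without sham 3 it was 0.14. STZ 1 also had the smallest Actb 3' minus 5' difference of the 5 arrays, whose part in this result was not tested. The integrated stress response through ATF4 (14 genes, median 0.06), p53 targets (10 genes, 0.06), alkylation repair enzymes (11 genes, -0.08) and antioxidant enzymes (18 genes, -0.01) stayed near the median of all genes. Among p53 targets, Trp53inp1 was at 9.42 and 9.94 on STZ arrays and 9.25, 9.25 and 8.67 on sham arrays (0.63 ± 0.34, and 0.37 without STZ 3), while Cdkn1a (p21) differed by 0.05 ± 0.17.

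**Figure D3:**
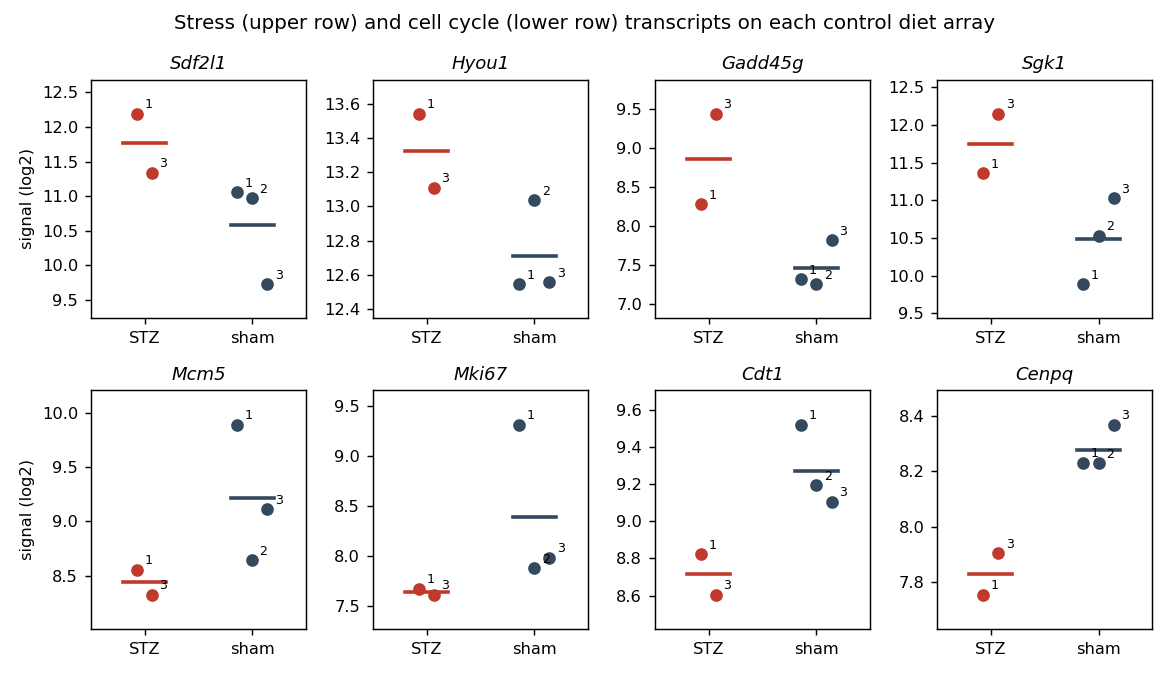
Signal (log2, each panel on its own vertical scale) of 4 stress-related transcripts (upper row) and 4 cell cycle transcripts (lower row) on the 2 STZ and 3 sham arrays of control diet offspring. Points are arrays with their replicate numbers and bars are group means; STZ arrays lie above all sham arrays in the upper row and below them in the lower row, and sham 1 is well above the other sham arrays for Mcm5 and Mki67.

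Some of the greatest positive differences lay outside the chaperones. Gadd45g, a growth arrest and DNA damage inducible protein, measured 8.29 and 9.44 on STZ arrays, against 7.32, 7.26 and 7.82 on sham arrays (1.39 ± 0.61, 2.63-fold higher, and 0.82 without STZ 3). Sgk1, a kinase induced by serum and glucocorticoids, gave 11.36 and 12.15 after STZ against 9.89, 10.53 and 11.03 in sham (1.27 ± 0.52, 2.42-fold higher). Myc, the growth-promoting transcription factor, was at 9.72 and 9.70 after STZ and 9.05, 8.94 and 9.13 in sham (0.67 ± 0.22, 1.59-fold higher). All 3 had groups that did not overlap, narrowly for Sgk1 and by more than the spread within each group for Myc.

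Slc19a2, a thiamine transporter whose human form is mutated in a syndrome with diabetes, gave 9.68 and 10.68 after STZ against 9.41, 9.15 and 9.11 in sham (0.96 ± 0.24, and 0.45 without STZ 3), but a second probe set gave 0.11. Snd1, an RNA-binding nuclease abundant in secretory cells, was at 11.89 and 11.66 after STZ and 11.58, 10.35 and 9.98 in sham (1.14 ± 0.36), with other probe sets at 0.23 and 0.03. The transcription factor Atf5 (0.76 ± 0.28), the sterol-binding protein Tmem97 (0.84 ± 0.35), Lrrc75b (0.92 ± 0.31) and the interleukin 22 receptor subunit Il22ra1 (0.64 ± 0.20) also lay wholly above sham. The smallest p-values among higher genes belonged to genes with small differences, such as Zfp819 (0.41 ± 0.08) and the Golgi calcium and manganese pump Atp2c2, with 10.79 and 10.56 on STZ arrays and 10.25, 10.03 and 10.11 on sham arrays (0.55 ± 0.12). Over all tested genes, 55.5% of the 11352 further bright probe sets had the sign of the one used. For genes with an unadjusted p under 0.05 and no overlap the share was 65.0% of 408, and the rest had the opposite sign.

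Cell cycle transcripts were lower after STZ in most members, with sham 1 the array of highest signal. Of 32 listed genes 28 were tested, 24 were lower and 4 higher, and the median was -0.23. Of all genes 49.3% were lower. In the list 10 lay wholly below sham (7.72% of all genes) and 7 had an unadjusted p under 0.05, all lower (2.13% of all genes). Replication licensing genes were among them. Cdt1, which loads the MCM helicase, gave 8.82 and 8.60 on STZ arrays, against 9.52, 9.19 and 9.10 on sham arrays (-0.56 ± 0.16, with 0.03 by a second probe set). Mcm5, a subunit of that helicase, gave 8.55 and 8.32 after STZ against 9.89, 8.64 and 9.11 in sham (-0.78 ± 0.28, -0.44 without sham 1, and 0.06 by a second probe set). Its partner Mcm6 differed by -0.81 ± 0.35 with overlapping arrays (8.07 and 7.90 after STZ, 9.57, 7.91 and 8.89 in sham).

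The kinetochore protein Cenpq had the steadiest difference, with 7.75 and 7.90 on STZ arrays and 8.23, 8.23 and 8.37 on sham arrays (-0.45 ± 0.09). Cdc6, the partner of Cdt1 in licensing, and the spindle protein Nusap1 differed by -0.31 ± 0.09 and -0.33 ± 0.09. The proliferation marker Mki67 was at 7.67 and 7.61 after STZ and 9.31, 7.88 and 7.98 in sham (-0.75 ± 0.39), a difference made mainly by sham 1. Topoisomerase Top2a was slightly higher (0.14 ± 0.12). Outside the list, the tubulin regulator Stmn1 (-0.83 ± 0.34) and the kinetochore protein Spc25 (-0.79 ± 0.30) were also among the 10 lowest with no overlap and an unadjusted p under 0.05, and became -0.47 and -0.50 without sham 1. The mean of the 28 genes was 8.34 and 8.27 on STZ arrays against 8.89, 8.32 and 8.54 on sham arrays, so the groups overlapped. Without sham 1 the median was -0.09 with 5 genes lower at an unadjusted p under 0.05 (3.05% of all genes in that fit). Without sham 2 it was -0.32 with 16 (4.27%), and without STZ 3 it was -0.24 with 2 (2.48%). Cyclins and kinases of G1 and their inhibitors had a median of 0.05 over 15 genes.

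**Figure D4:**
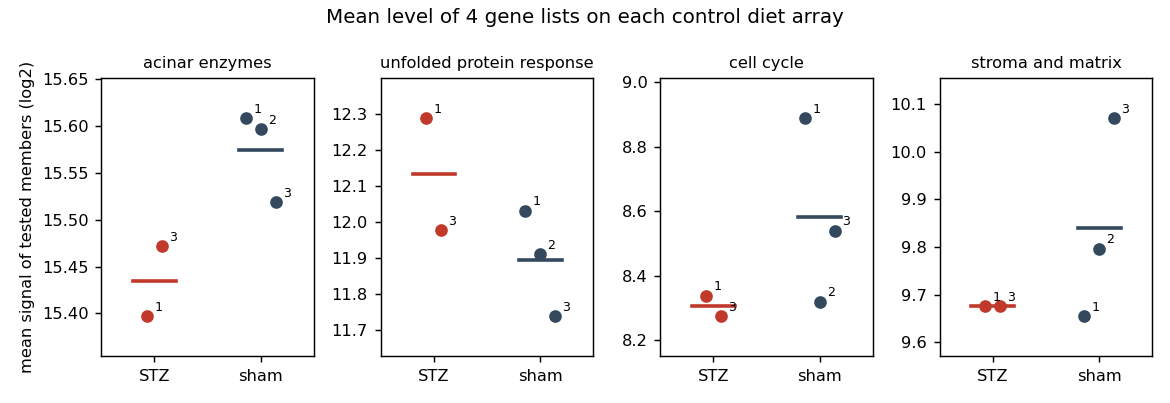
Mean signal (log2) over the tested members of 4 gene lists on the 2 STZ and 3 sham arrays of control diet offspring, each panel on its own vertical scale. Points are arrays with their replicate numbers and bars are group means; STZ arrays lie below all sham arrays for acinar enzymes, whereas for the unfolded protein response, the cell cycle and stroma the groups overlap, with STZ 1, sham 1 and sham 3 as the highest arrays in turn.

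Stromal and matrix transcripts were mostly lower after STZ and followed sham 3. Of 25 genes 22 were lower (49.3% of all genes) and the median was -0.14. Of these genes 5 lay wholly below sham (7.72% of all genes), 1 wholly above (8.64%), and 1 (Col6a3, a collagen VI chain, -0.32 ± 0.14) was lower at an unadjusted p under 0.05 (2.13%). Col3a1, a fibrillar collagen chain, gave 12.44 and 12.34 on STZ arrays and 12.56, 12.80 and 13.49 on sham arrays (-0.56 ± 0.31, and -0.29 without sham 3). Vim (vimentin) gave 9.96 and 10.17 after STZ and overlapped with 10.08, 10.94 and 11.05 in sham (-0.63 ± 0.28). The mean of the list was 9.68 on both STZ arrays, against 9.65, 9.80 and 10.07 on sham arrays. Without sham 3 the median was -0.06 with 0 genes at an unadjusted p under 0.05, whereas without sham 1 there were 8 lower ones (3.05% of all genes in that fit). Endothelial genes had a median of 0.01 over 16 genes, with the VEGF receptor Kdr at 9.96 and 10.03 after STZ against 10.34, 10.21 and 10.12 in sham (-0.23 ± 0.09).

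Immune cell lists had medians near that of all genes. Macrophage markers had a median of -0.00 over 13 genes, which was -0.17 with 11 lower without sham 1 and 0.16 with 12 higher without sham 3. The median was 0.04 for 12 B-cell markers, 0.06 for 9 T-cell markers and 0.07 for 7 plasma-cell markers. Antigen presentation genes were higher in 12 of 16 (50.7% of all genes were), with a median of 0.10. Without STZ 1 they were higher in 9 of 16, with a median of 0.05. The class I heavy chain H2-K1 measured 11.21 and 11.04 on STZ arrays against 10.91, 10.56 and 10.67 on sham arrays (0.42 ± 0.15). Its 3 other bright probe sets gave 0.23, 0.21 and -0.05. Of 12 interferon response genes 9 were higher (50.7% of all genes; median 0.05), but 6 without sham 1. Ifit3 (0.36 ± 0.12) and the interferon regulator Irf7 (0.31 ± 0.13) were higher at an unadjusted p under 0.05 (1.92% of all genes), and 0 of the 12 were without STZ 1, without STZ 3 or with the 2 groups alone. Neighbouring tissue that dissection could add had medians of 0.01 for 7 adipocyte genes and 0.02 for 10 intestinal genes. The adipocyte markers Adipoq and Plin1 and the intestinal genes Fabp1 and Fabp2 were not tested, being dim or without a probe set of their own. Of the intestinal genes, 1 lay wholly above sham (Apoa4, 0.34 ± 0.10) and 1 wholly below (Muc2, -0.17), against 8.64% and 7.72% of all genes. Glia and nerve (7 genes, 0.10), the IGF and insulin signalling list (17 genes, 0.06), respiratory chain subunits (23 genes, -0.05) and ribosomal proteins (14 genes, -0.02) also had medians within 0.10 of 0. The ribosomal list holds the mitochondrial Mrpl23 beside cytosolic members.

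The same injections were given to offspring of protein-restricted dams, and the 2 STZ contrasts share no array. There, Ins2 measured 12.89, 13.57 and 12.93 on STZ arrays, against 14.47, 13.91 and 13.27 on sham arrays (-0.75 ± 0.28), with overlapping groups. G6pc2 measured 7.18, 7.11 and 7.02 after STZ and 7.45, 7.42 and 6.80 in sham (-0.12 ± 0.29). Those sham signals lay close to the dim limit, which leaves little room for a lower value. Gcg measured 12.94, 12.85 and 13.20 after STZ and 13.65, 12.34 and 11.48 in sham (0.50 ± 0.41). None of these 3 genes separated the groups there, whereas in control diet offspring all 3 did. Groups of 3 and 3 arrays separate less readily than groups of 2 and 3, so this is no like comparison of the diets. The lower mean of Ins2 after STZ was seen in both diets. The difference of the STZ effects is given next.

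The difference of the STZ effects (control diet minus low protein) was tested in the same limma model, and 0 of 15897 genes (0%) had an adjusted p under 0.05, with 566 (3.56%) at an unadjusted p under 0.05. For G6pc2, whose low protein sham signals were close to the dim limit, it was -2.28 ± 0.44, for Iapp -1.58 ± 0.52, for Gcg -1.32 ± 0.62 and for Cltrn -1.26 ± 0.37, and for Ins2 it was smaller, at -0.97 ± 0.42 (limma, adjusted p = 1.00 for each). Scg2, Chgb and Chga gave -1.02 ± 0.41, -0.47 ± 0.15 and -0.53 ± 0.31. Among higher genes Gadd45g gave 2.06 ± 0.81, Sdf2l1 1.39 ± 0.53, Slc19a2 1.03 ± 0.32 and Atp2c2 0.77 ± 0.17. The Gadd45g value rested in part on low protein sham 1. Its low protein signals were 7.20, 7.32 and 7.30 after STZ, against 9.51, 7.16 and 7.12 on sham 1, 2 and 3. In low protein offspring the list medians were -0.01 for hormones, -0.07 for granins and processing enzymes, -0.00 for the unfolded protein response, 0.00 for the cell cycle and -0.01 for stroma, while acinar enzymes had -0.10. Groups did not overlap in both diets for 213 of 15897 genes, 93 in the same direction and 120 in opposite directions. In control diet offspring 16.4% of genes had groups that did not overlap. In low protein offspring 1230 genes (7.74%) had groups that did not overlap and 412 (2.59%) an unadjusted p under 0.05. Groups of 2 and 3 arrays separate more readily by chance than groups of 3 and 3, so the shares without overlap do not compare the diets.

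**Figure D5:**
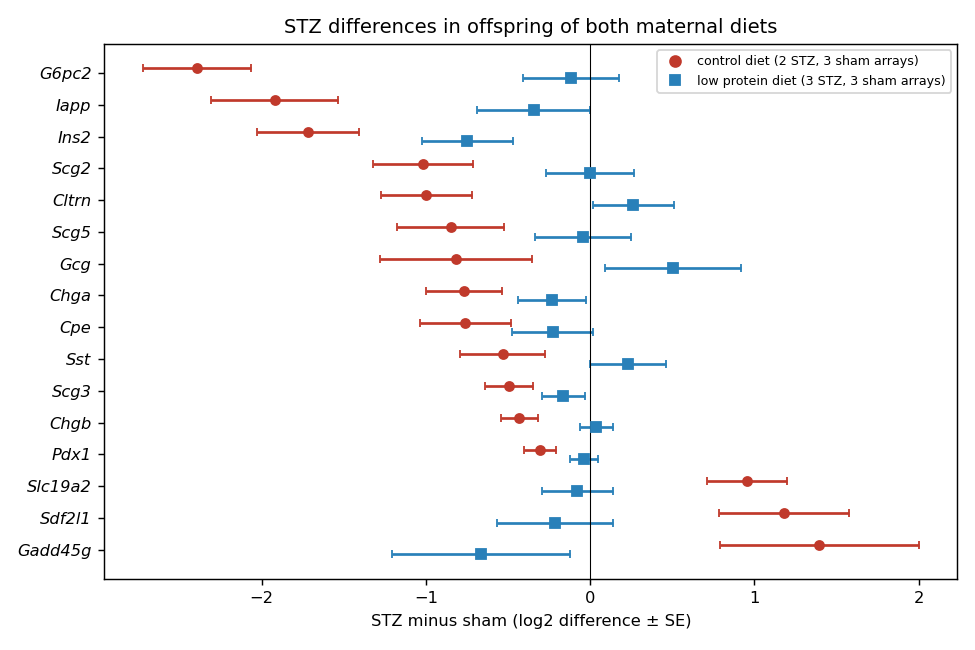
STZ minus sham (log2 difference ± SE from the limma fit, horizontal) of 16 genes in offspring of control diet dams (red circles, 2 STZ and 3 sham arrays) and of low protein dams (blue squares, 3 STZ and 3 sham arrays). Control diet differences run from -2.39 for G6pc2 to 1.39 for Gadd45g; low protein differences run from -0.75 for Ins2 to 0.50 for Gcg.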

How the data were processed

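Whole pancreas RNA was measured on 11 Affymetrix mouse arrays in 4 groups. The values are log2 signals per probe set as deposited by the authors. Per the submitters' processing notes, RMA and Partek 6.5 were used, with their steps not stated, and the genome build is not given in the sources used here. RMA as commonly run draws the arrays to 1 distribution and sums the probes of a set, which compresses differences near both ends of the scale.

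Gene symbols came from GEO's annotation of the array. Of 45101 probe sets, the 34958 with 1 symbol were used, and 932 with several and 9211 without one were not. Each of 18194 genes was represented by its probe set of highest mean. Genes at or under 6.866, the 0.25 quantile of probe set means, were not tested (2297), leaving 15897.

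Group means were fitted with limma 3.58.1 (lmFit, eBayes) in R 4.3.3 over all 11 arrays (7 residual and 3.58 prior degrees of freedom), two-sided, with Benjamini-Hochberg adjustment and a threshold of 0.05. Tables and figures were made with Python 3.11.15. The fit was tested on simulated data. Named genes are all hormones, up to 4 members of each list with the smallest p, the 10 greatest differences in each direction with an unadjusted p under 0.05 and no overlap, and the 4 smallest p in each direction; other list members and the 2-fold genes Dbp, Pdk4 and Creld2 were named after their values were seen. The members and gene lists were chosen with earlier results of these data known. Replicate numbers were not used to pair the arrays in the main fit. Deviations of same-numbered arrays from their group means correlated by -0.32 to 0.26 (15 pairs), those of other pairs by -0.46 to 0.39 (30 pairs). With means of 2 or 3 arrays these pairs depend on each other, so the check cannot settle whether the numbers pair arrays. The number of arrays limits the precision. Alternatives were a replicate block, the 2 groups alone, trend and robust moderation, array weights, cyclic loess scaling, no dim filter, every probe set, an unadjusted call rule and each array left out.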

Additional observations from a re-analysis of the deposited data

Results flagged for a closer look

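For 4 named genes every STZ array lay on one side of its sham arrays in control diet offspring and on the opposite side in low protein offspring. Zfp819, a zinc finger gene, differed by 0.41 in the control diet and -0.14 in the low protein diet, and Gm20346, a predicted gene, by 0.42 and -0.27. Tyrobp, an adaptor of myeloid cells, differed by -0.12 in the control diet and 0.15 in the low protein diet, and the intestinal mucin Muc2 by -0.17 and 0.18. The separation itself was not tested. The limma fit of the difference between the diets gave 0.55 ± 0.10 for Zfp819, 0.69 ± 0.12 for Gm20346, -0.27 ± 0.10 for Tyrobp and -0.35 ± 0.13 for Muc2 (control minus low protein, SE), and none had an adjusted p under 0.05 (limma, adjusted p = 1.00 for each). Over all 15897 genes, 120 had groups that did not overlap in both diets and differed in opposite directions, and 93 in the same direction. Groups of 2 and 3 arrays are too small for a check on single arrays far from their group.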

How the results depend on the processing

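The count of genes passing for STZ against sham was 0 under the replicate block, with the 2 groups alone, trend and robust moderation, array weights, cyclic loess scaling, no dim filter and every probe set. Leaving out each array in turn gave 0 to 1, the 1 being G6pc2 without control sham 2. Under the unadjusted rule with a 1.5-fold minimum there were 43 genes, and 60 for the difference between diets, which otherwise stayed at 0, also in each fit without an array (0 to 0). The fit of the 2 groups alone does not apply to that difference. With the replicate block the smallest adjusted p was 0.474 and 659 genes had an unadjusted p under 0.05, against 644 without it, and it changed no call. That count ranged from 457 (without control STZ 1) to 976 (without control sham 2) among fits without 1 array, and was 962 with array weights, 469 with the 2 groups alone and 1100 with every probe set, where more features were tested. Of 2646 values of 147 named genes under 18 alternatives, 2633 kept direction and side of the threshold, 1 passed (G6pc2) and 12 changed sign, all when 1 array was left out: Hhex (-0.039 to 0.35), Reg4 (-0.0059 to 0.15), Reg3d (-0.26 to 0.0094), Aqp1 (-0.27 to 0.014), Atf3 (-0.071 to 0.23), Gfap (-0.019 to 0.24), Mrc1 (-0.29 to 0.012), Cd2 (-0.091 to 0.32), Thy1 (-0.13 to 0.015), Retn (-0.11 to 0.022) and Guca2a (-0.054 to 0.28). Many of the 2646 values could not change direction, because the alternative leaves the control diet difference of a gene as it was. These are the fits without a low protein array, the 2 groups alone, trend and robust moderation, no dim filter and every probe set. In them only the side of the threshold could change, so the 2633 is no measure of steadiness. With 2 STZ arrays, no count of passing genes bounds the true number of changes, and signals under 6.866 or near 15.91 understate differences. The counts of list members without single arrays were chosen after seeing the data.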

Other observations

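Further groups of genes were looked at because Dbp and Pdk4 were among the 11 genes that differed at least 2-fold, so they were chosen after the values were seen and carry no test. Clock-controlled genes were lower in 10 of 15 (median -0.09), where 49.3% of all genes were lower. Dbp, a transcription factor whose transcript cycles through the day, was at 8.78 and 10.26 on STZ arrays and 11.56, 9.51 and 11.35 on sham arrays (-1.28 ± 0.74), and the groups overlapped. Its relative Tef differed by -0.25 ± 0.11 and the clock repressor Nr1d2 by -0.53 ± 0.44. Nr1d2 was low on both STZ arrays and on sham 2, the array that was also lowest among sham arrays for Dbp. The time of day at dissection is not given in the sources used here.

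Genes that respond to fasting or glucocorticoids were higher in 12 of 17 (median 0.21), where 50.7% of all genes were higher. The 17 include Gadd45g (1.39) and Sgk1 (1.27), named above for differences of at least 2-fold. Pdk4, the kinase that shuts off pyruvate oxidation in fasting, measured 8.65 and 8.93 on STZ arrays, against 7.79, 6.73 and 8.44 on sham arrays (1.14 ± 0.55). Tsc22d3 (GILZ), a glucocorticoid-induced leucine zipper protein, was at 10.22 and 10.21 after STZ and 9.70, 9.64 and 9.46 in sham (0.62 ± 0.22). Ddit4, an inhibitor of mTOR signalling induced by stress, was at 9.93 and 10.15 after STZ and 9.08, 9.34 and 8.89 in sham (0.93 ± 0.57). All 3 lay wholly above control diet sham. Low protein sham 1, an array without STZ, had 9.05 for Pdk4 and 10.79 for Ddit4, above both control diet STZ arrays, and 9.95 for Tsc22d3, below them. Low protein sham 2 and 3 gave 7.63 and 7.34 for Pdk4, 8.29 and 9.01 for Ddit4, and 9.44 and 9.58 for Tsc22d3. Fkbp5 and Zbtb16, other glucocorticoid-induced genes, differed by -0.08 ± 0.11 and -0.03 ± 0.09. Cpt1a and Angptl4, listed with Pdk4, differed by -0.17 ± 0.29 and -0.07 ± 0.13, so the group did not move as 1. All of these genes had a limma adjusted p of 0.999.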
